A study of Drosophila melanogaster with 3 samples.

Results

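Among the 559 summits of Collier (Col) binding deposited for *Drosophila* embryos, 3 carried the gene label *Smr*, *nvy* or *wge*, and each of these genes had 1 summit. The members were chosen by their label: they are genes of corepressors and chromatin-associated proteins, and *Smr* and *wge* were picked because they are among the 10 highest summits. Their fold enrichments are therefore given as a description. The data came from chromatin immunoprecipitation followed by sequencing (ChIP-seq) of whole embryos at stage 13 to 14, which recovers the DNA to which a protein was cross-linked. Chromatin was precipitated either with a mix of 3 monoclonal antibodies against Col (Col-IP) or with a non-relevant antibody, raised against the HA tag (mock-IP). Input DNA was sequenced as a further library, according to the labels. The study's methods describe the embryos of the IPs as carrying a *lacZ* reporter under a *col* regulatory module with an altered Col site. Each IP was 1 library of 2 pooled IPs, so the sequencing measured no spread between IPs. The study describes an elution in competition with recombinant Col, and does not say whether the mock-IP was eluted so. Whole embryos were used although Col is present in few of their cells, and the cells in which a site was bound cannot be told apart. The values used here are the positions, gene labels and fold enrichments of the Col summits in genome build dm3, where the fold enrichment is the linear ratio that the authors' peak caller assigned to a peak. Read counts are not part of the list, so the number of reads behind a summit is unknown, and no value is given for the mock-IP or the input DNA.

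Col is the single fly member of the COE family of transcription factors, which bind DNA as dimers. Their recognition sequence is a palindrome with the core CCCNNGGG, with an arm on each side of the unspecified bases NN. Corepressors do not read DNA themselves as a rule: they are brought to genes by transcription factors and carry histone deacetylases or other enzymes that make chromatin less accessible. Smr (Smrter) is the fly relative of the vertebrate corepressors SMRT and N-CoR and is known as a partner of the ecdysone receptor. Nervy, encoded by *nvy*, is the fly member of the MTG/ETO family, whose vertebrate proteins bind N-CoR, SMRT and histone deacetylases. *wge* (*winged eye*) encodes a protein with a BAH domain, a module found in chromatin proteins, and is named for the wing-like tissue formed in the eye when it is overexpressed.

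Each of the 3 summits lay close to a site listed in the study's supplementary file of 15-base Col sites. Those of *Smr* and *wge* are shown on the strand printed there, while the site of *nvy* is described by counts alone. Capitals mark the bases that match the 6 specified bases of CCCNNGGG, which is read at positions 5 to 12 counted from the left end. The *Smr* site lies at chrX:12630284-12630298 and the *wge* site at chr3R:18545287-18545301, both in dm3. The strand refers to the printed list, which orients sites by the motif. Below them stand the sites of *cnc* and *pum*, which were among those most like the *Smr* site, and of CG1958, the one most like the *wge* site.
Smr: aattCCCcaGaGaac
wge: gcttCCCaaGGGaca
cnc: aattCCCcaGGGacc
pum: aattCCCcaGGGaaa
CG1958: gctgCCCaaGGGact
The *Smr* site has one base of the core changed, while the *wge* site has the full core and differs from the palindrome only in its flanks.

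The summit at *Smr* (CG4013) lay at position 12630312 of the X chromosome. Its fold enrichment was 9.38, which was rank 4 of all 559 summits and 3.29 times their median of 2.85. Directly above it stood the summit of *px* at 9.48, and directly below it that of *Fas1*, a cell adhesion gene, at 8.84. On the X, which held 53 summits with a median of 3.68, only the summit at *Sep4*, a septin gene, was higher, at 10.58. Among the 314 genes with a single summit, the one at *Smr* was second.

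The summit at *wge* (CG31151) lay at position 18545292 of arm 3R and had a fold enrichment of 7.87, 2.76 times the median. It held rank 10 overall and was thus the last of the 10 highest summits. The limit of that group is narrow: CG12541, at rank 9, had 7.90, and CG9328, at rank 11, had 7.85, which is 0.02 below *wge*. No error is known for these values, so steps of this size are not resolved. On arm 3R, whose 131 summits had a median of 2.67, *wge* ranked 3, after *Fas1* (8.84) and *cnc* (8.03).

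The summit at *nvy* (CG3385), at position 20162492 of arm 2R, differed from both in height. Its fold enrichment of 2.55 was 0.895 times the median, and 34.5% of all summits were lower. It was the one member under 3, a value that 44.9% of all summits reached. It shared rank 361 with 5 other summits, those of *osm-6*, *zen*, CG15925, *gl* and *luna*. The next summit above them was at *hth* (2.56) and the next below at *tup* (2.54). On arm 2R it was rank 82 of 118, where the median was 3.14 and the highest summit, at *Oaz*, reached 16.17.

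**Figure D1:**
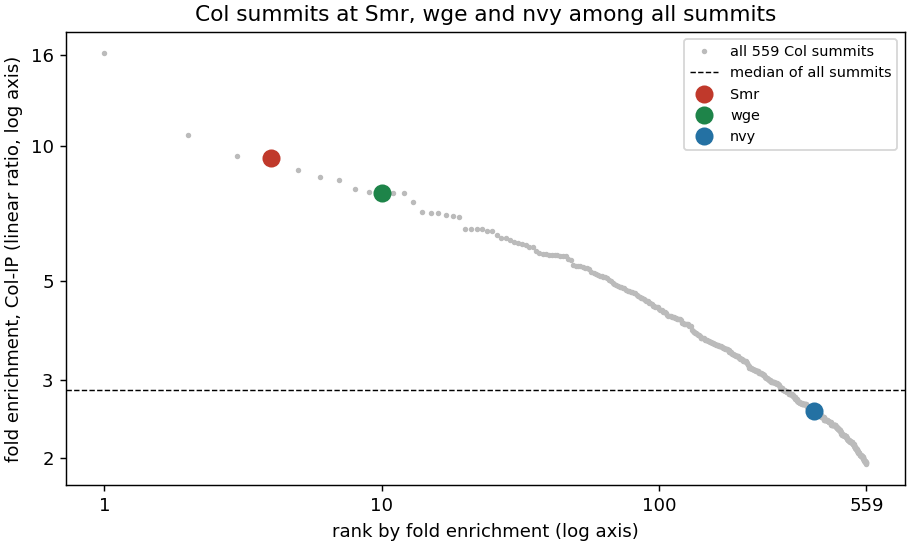
Fold enrichment of all 559 Col summits (linear ratio, log axis) against rank (log axis), each grey point 1 summit and the dashed line their median of 2.85. *Smr* (9.38) and *wge* (7.87) lie at the upper left, and *nvy* (2.55) lies under the median.

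The genes differed in how the summit lies to the gene. In the study's annotation, the summits of *Smr* and *wge* are classed as intragenic and that of *nvy* as lying upstream of the gene. The study places most of all its summits in introns and the next largest share upstream, so both classes are common. In the RefSeq gene table (Release 6, used for names and gene order alone), the coding gene CG15725 overlaps *Smr*, while no coding gene overlaps *nvy* or *wge*. Whether the *Smr* summit lies in an intron shared with CG15725 was not resolved, since no annotation of dm3 was used. Of the coding genes next to the members, *Tis11*, beside *Smr*, had a summit of its own. CG4004 on the other side of *Smr*, CG13577 and *Fatp3* beside *nvy*, and CG4907 and *Irp-1A* beside *wge* had none.

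A listed site had its centre within 100 bp of all 3 summits, as did 97.0% of all summits. All 3 sites were also within 25 bp, against 62.4% of all summits. At *wge* the site centre was 2 bp from the summit, a distance that 50 of the 559 summits reached. Among these 50, whose median fold enrichment was 2.99 and whose lowest was 1.96, *wge* ranked 3 in height. At *nvy* the distance was 16 bp and at *Smr* 21 bp, around the median of 18 bp over all summits with a site. The authors searched for sites only within the window around each summit, so a site within 100 bp is a consequence of that search.

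The *nvy* site matched the palindrome best. The sequence that the vertebrate relative EBF binds in vitro adds ATT before the core and AAT after it, which gives 12 specified bases at positions 2 to 15 of the printed site. Of these, the *nvy* site held 11, the *Smr* site 10 and the *wge* site 9, while over the 542 listed sites the number ran from 4 to 12, with a median of 8. At least 9 were held by 39.5% of all sites, and at least 11 by 13 sites (2.40%). The *nvy* and *wge* sites had all 6 core bases, as had 42.6% of the sites, and the *Smr* site had 5, as had 44.6%. These sites were picked by the same motif, so a good match is in part a result of the search.

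The arms of the palindrome were not matched alike. On the printed strand, the left arm, ATTCCC, was complete with 6 of 6 bases at *Smr* and *nvy* and held 5 at *wge*. The right arm, GGGAAT, held 4 bases at *Smr*, 5 at *nvy* and 4 at *wge*. Over all 542 sites the medians were 5 for the left and 3 for the right arm, and 19.4% of sites had the full left arm. The left arm had the more matches in 70.5% of the sites, so a better left arm is the usual state in this list.

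At *Smr* the departures from the palindrome were G11A, in the core, and T15C, in the flank; the in vitro base stands first and positions are counted from the left end of the printed site. Position 11 held G in 67.0% of all sites and A in 24.2%. Of the 242 sites with 5 core bases, 128 (52.9%) had their mismatch at this position, more than at any other core position, and none had it at position 5. The change at *Smr* was thus the commonest kind of core mismatch in the list. The sites with 5 core bases and this same base belonged to 96 summits, whose fold enrichments ran from 1.94 to 9.38 with a median of 2.84. *Smr*, which was chosen for its height, was the highest of them and of all 242 summits whose site had 5 core bases, and the next of the 96 was 7.90.

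At *wge* the departures were A2C, A14C and T15A, all in the flanks. C at position 2 was rare, in 7.38% of the sites against 53.3% with A. At position 14, C was found in 29.5% of the sites and the in vitro base A in 19.6%. Among the 231 summits whose site had the full core, *wge* was seventh in fold enrichment and *nvy* was rank 156. The medians of fold enrichment were 3.07 with 6 core bases, 2.79 with 5, and 2.67 with 4 or fewer, and the quartiles of these groups overlapped.

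The middle bases, which the core does not specify, were CA at *Smr* and AA at *wge*. CA was the commonest pair, in 117 of the sites (21.6%), and AA came second, in 101 (18.6%). The *Smr* site carried the most frequent base of the list at 12 of its 15 positions, the *nvy* site at 13 and the *wge* site at 10.

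To measure how typical each site was over all 15 positions, it was scored by a weight matrix made from the other listed sites, as log2 odds against equal base shares. The *nvy* site scored 16.68, rank 8 of 542, the *Smr* site 16.13, rank 15, and the *wge* site 13.42, rank 129. The median score was 11.58, with a range from 2.77 to 18.19. The order of the scores was not that of the fold enrichments, since *nvy* had the best site and the lowest summit of the set. *Smr* and *wge* were chosen for their height, so the low place of *nvy* among the members largely follows from the choice. Of the 8 summits whose site scored as high as that of *nvy* or higher, *nvy* had the lowest fold enrichment. The median of these 8 was 3.85 and the highest was 16.17, at *Oaz*. The score of *nvy* itself set this cut, and the next site by score, at *mnd* (16.57), had a lower summit of 2.12.

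By matches to the palindrome, which count bases of the same site as the score, *nvy* was also a low summit with a good site. The 13 summits whose site matched 11 or 12 of the 12 bases had fold enrichments from 2.55 to 10.58, with a median of 3.86. *nvy* was the lowest of them, below *Gprk2* at 2.62. It was one of 2 in this group to lie under the median of all summits. The match count of *nvy* itself set this cut. Sites with 10 matches belonged to summits both higher and lower than *nvy*, such as *Oaz* at 16.17 and *Ets65A* at 1.99. Over all 542 summits with a site, score and fold enrichment were weakly related (Spearman's rho 0.178), a description over sites of 1 library that were chosen by the same motif.

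**Figure D2:**
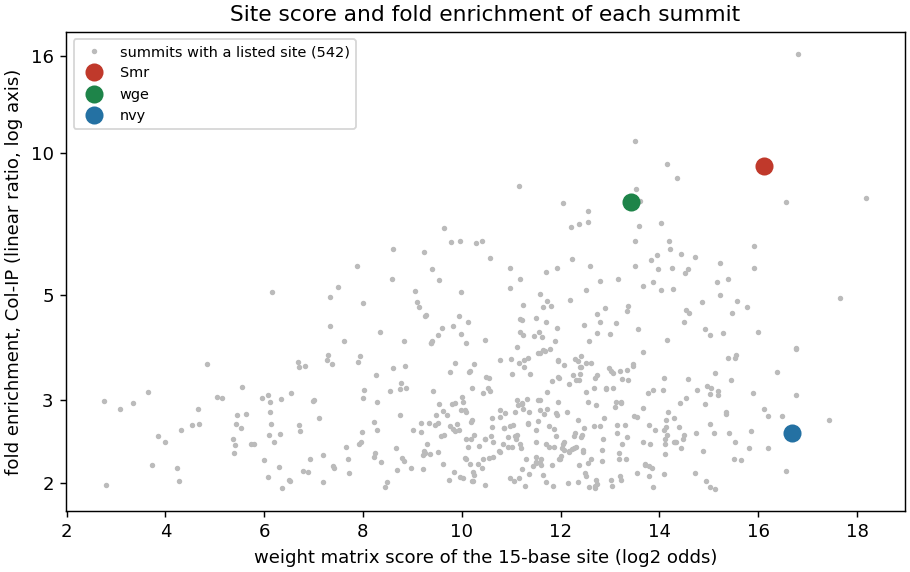
Fold enrichment (linear ratio, log axis) against the weight matrix score of the site (log2 odds) for the 542 summits with a listed site, each grey point 1 summit. *nvy* lies far to the right at 16.68 but low at 2.55, *Smr* is high on both axes, and *wge* combines a score of 13.42 with a fold enrichment of 7.87.

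Sites most like those of the members were found by the number of differing bases over 15 positions, for which the median over all other sites was 6 for each member. The *Smr* site differed by 2 bases from 5 others. Among these were the sites of *cnc*, a head patterning gene with a fold enrichment of 8.03, of *pum*, a translational repressor gene, with 3.86, and of *Hdc*, the gene of histidine decarboxylase, with 3.84. Over the 5 sites the fold enrichments ran from 2.27 to 8.03, so near-identical sites had summits of unlike height. *cnc* had the highest score of the whole list, and its core is complete as listed there. For its reporter construct, the study prints this site with T at position 6, marked as a polymorphism.

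The *wge* site differed by 2 bases from that of CG1958 alone, and this summit had a fold enrichment of 2.08, far under the 7.87 of *wge*. Their sites both had their centre 2 bp from the summit, a distance finer than the grid of summit positions resolves. By 3 bases it differed from further sites, among them those of CG34362 (5.56) and *ci*, the gene of the transcription factor of the Hedgehog pathway. The *ci* site was shared by 2 summits, one of 5.70 at 10 bp and one of 6.33 at 80 bp. The *nvy* site was 1 base away from the sites of *otp* (4.91) and *luna* (2.55), and 2 bases from a site of *Oaz* (5.12). Between the members, *Smr* and *nvy* differed by 4 bases, *nvy* and *wge* by 4 and *Smr* and *wge* by 6.

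Along the chromosome, *nvy* and *wge* lay farther from other summits than most, and *Smr* did not on its own arm. The nearest other summit was 269690 bp from *nvy*, against a median of 16360 bp on arm 2R, and 126320 bp from *wge*, against 36430 bp on arm 3R. For *Smr* it was 67600 bp away, under the median of 102070 bp on the X, although over the median of 28800 bp over all summits. On these arms, a more distant neighbour was found for 3 of 118 summits in the case of *nvy*, 20 of 131 for *wge* and 30 of 53 for *Smr*. Within 100 kb on either side there was 1 other summit for *Smr* and none for *nvy* or *wge*, with a median of 2 over all summits. None of the 3 was therefore part of a close series of summits, and each was the only summit of its gene, as for 76.8% of all gene labels.

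At *Smr* the nearest neighbour was the summit of *Tis11*, which encodes a protein that promotes the decay of mRNAs, with a fold enrichment of 2.51. On the other side, no summit was listed until *NetB*, the gene of the guidance cue Netrin-B (2.87), 1989 kb away. This was the longest of the 551 intervals between neighbouring summits of an arm, whose median was 79.0 kb. On the X alone, the median interval was 246 kb. *Smr*, the second highest summit of the X, thus stood at the edge of the longest stretch without a listed summit.

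The interval to the left of *nvy*, up to CG3092 (3.35), was 1047 kb, the second longest of arm 2R and rank 11 overall. To its right followed the summit labelled *itp*/CG4622 (3.14). At *wge* the neighbours were *SKIP* (2.41), 440 kb to the left, and CG4704 (2.48), 126 kb to the right. Within 500 kb there were 2 other summits for *Smr*, 1 for *nvy* and 6 for *wge*, with a median of 5 over all summits. Of the 6 around *wge*, 5 were lower than *wge*, and the sixth was that of *cnc*, 492 kb away. These intervals concern listed summits only, and an interval without one may hold weaker binding.

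**Figure D3:**
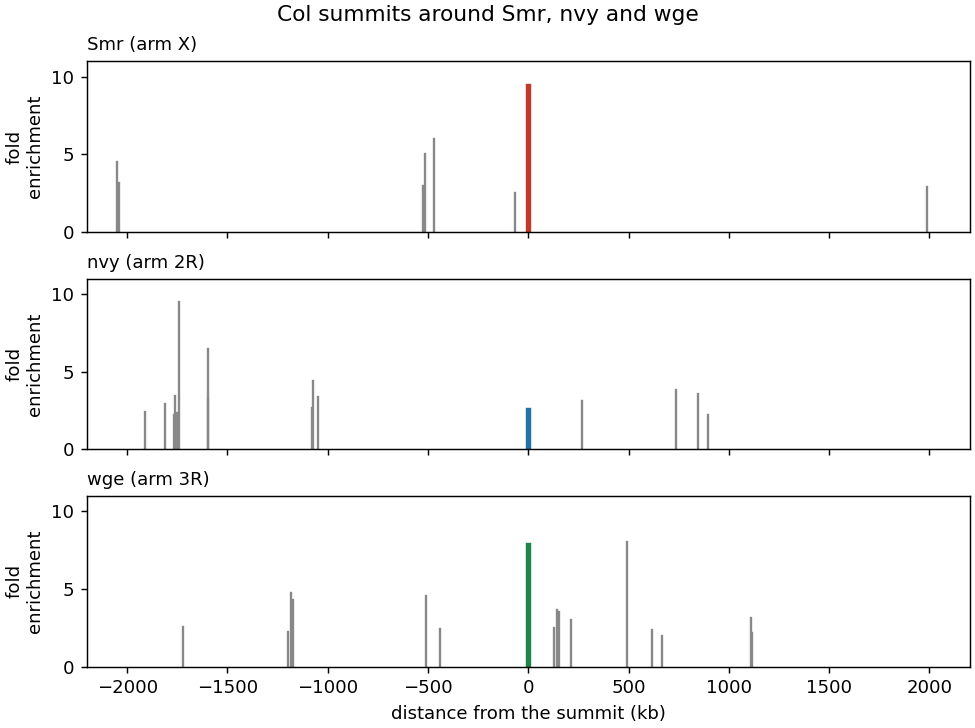
Listed Col summits on the same arm around *Smr*, *nvy* and *wge*, each line 1 summit, against the distance from the member's summit (kb), with the fold enrichment (linear ratio) as height and the member in colour. To the right of *Smr* no summit appears until 1989 kb, and *nvy* has none for 1047 kb to its left.

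Other genes of corepressors and chromatin regulators were taken from a list of 96 that includes the members. Of the 93 others, 92 were found in the RefSeq table and 8 had a summit, while 2.92% of the 13962 protein-coding genes of that table had one. They had 14 summits in all, with fold enrichments from 1.96 to 6.46 and a median of 3.46, against 2.85 over all summits. Of the 14, 4 belonged to *jing*, and the other 10 had a median of 2.87. *Smr* and *wge* were chosen for their height, so their place above all 14 follows from the choice. *nvy* lay below 9 of the 14 (64.3%) and below 64.4% of all summits. The list was made with earlier results of these data known, and the share of listed genes was not tested against that of all genes.

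Of the 20 other genes of deacetylase and corepressor complexes, 3 had a summit, beside 2.92% of all protein-coding genes. The corepressor gene *sbb* (*scribbler*) had 3 summits (3.63, 3.33 and 2.20), *Gug*, the fly Atrophin gene, had 1 (2.31), and *simj*, which encodes a subunit of the NuRD deacetylase complex, had 1 (1.96). *nvy* (2.55) fell between the summits of *sbb*. Those without a summit include *gro*, *CtBP*, *Sin3A*, *ebi* and *HDAC3*; Ebi is the fly relative of the TBL proteins, which act with SMRT and its deacetylase in vertebrates.

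Of the 23 Polycomb group genes listed, 22 were found in the RefSeq table and 3 had a summit. *RYBP*, which encodes a partner of Polycomb repressive complexes, had summits of 6.46 and 3.30, *jing* had 4 from 4.94 to 6.06, and *Psc*, a subunit of such a complex, had 1 at 2.44. Of the 32 trithorax group, remodelling and acetylation genes, *osa*, a subunit of the Brahma remodelling complex, had a summit (2.31). Among the 18 other genes of histone methylation, heterochromatin and related proteins, *gpp*, a histone methyltransferase gene, was the one with a summit (3.59). The share over all protein-coding genes was 2.92%, and no class was tested against it. Of the 14 summits, 9 had a site within 25 bp and 6 had one with the full core, which is near the shares over all summits (62.4%) and all sites (42.6%).

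**Figure D4:**
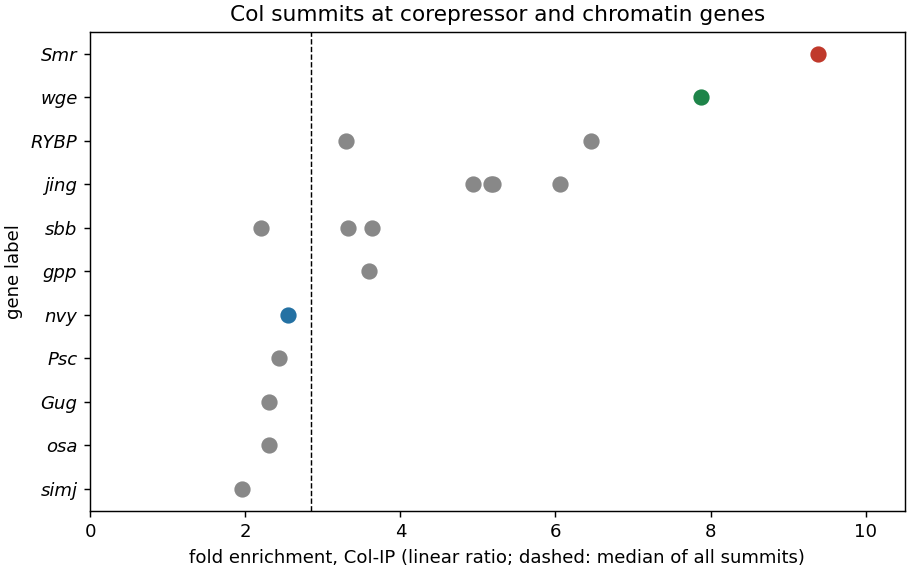
Fold enrichment (linear ratio) of each Col summit at the listed corepressor and chromatin genes, 1 point per summit and 1 row per gene, with the members in colour and the median of all summits dashed. *Smr* (9.38) and *wge* (7.87) lie to the right of all other points, as their choice by height fixes, and *nvy* (2.55) lies left of the dashed line with *Psc*, *Gug*, *osa*, *simj* and the lowest summit of *sbb*.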

How the data were processed

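Reads of the Col-IP were aligned by the authors to dm3 with Bowtie 0.12.7, plasmid reads left by the elution were removed, and peaks were called with SISSRs on the pooled library at lenient thresholds. The authors deposited, per summit, its position, the gene it was assigned to and a fold enrichment. This is a linear ratio, and the background it refers to is not given in the sources used here. Neither thresholds nor read depth could be varied.

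Summits were joined to the nearest site of the study's supplementary site list, within 100 bp of the site centre. Sites were scored by a weight matrix from the other 541 sites, with a pseudocount of 1 per base and equal base shares of 0.25. Of 414 gene names in the labels, 409 were found in RefSeq (Release 6), older names included.

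The members and gene lists were chosen with earlier results of these data known. Each group has 1 library, so nothing was tested and no p-value is given. Genes named are the members, their neighbours in height, along the arm and in site sequence (ties in the order of the site list), the listed genes and the highest summit of each arm; others were named after their values were seen. Alternatives were a minimum fold enrichment of 3, merging within 200 bp, shorter reaches and other matrices. The functions were tested on simulated data. Python 3.11.15, numpy 2.4.6, scipy 1.17.1 and matplotlib 3.10.9 were used.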

Additional observations from a re-analysis of the deposited data

How the results depend on the processing

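Of 28 alternatives, 22 left the value within 1.5-fold. Ranked among the 314 genes with a single summit, *Smr* was second (rank 2) and *nvy* rank 190. This list is shorter than that of all 559 summits, which lowers rank numbers by itself. With a matrix background from the base shares of the sites, the *Smr* site rose to rank 7, and with the matrix made without summits under a fold enrichment of 3 the *nvy* site rose to rank 3. Keeping only summits of at least 3 left *Smr* and *wge* of the members (44.9% of all summits reach it), put the nearest summit to *Smr*, at *Ten-a*, 468770 bp away, since *Tis11* falls below, and left 4 of the 8 other listed genes with a summit. All 3 members kept a site within 50 bp and within 25 bp. No paired analysis was possible because there is 1 library per group. With neither read counts nor replicates, no error can be put on a fold enrichment, and the small steps in height around *wge* and *nvy* cannot be ordered.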

Other observations

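The summit of *luna*, on the same arm as that of *nvy*, shared its fold enrichment of 2.55 and had a site that differed from the *nvy* site by 1 base. Its site held 10 of the 12 in vitro bases and all 6 core bases, and its centre lay 29 bp from the summit, against 16 bp at *nvy*. *luna* encodes a zinc finger transcription factor. The other site that differed by 1 base, at *otp*, belonged to a summit of 4.91. This pair was noticed after the values were seen.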
